A study of Mus musculus with 2 samples.

Results

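The genes of oxidative phosphorylation, the respiratory chain and ATP synthase of the mitochondrion, were described across the cell classes of the mouse leptomeninges, with nuclear and mitochondrial genes kept apart. Members were the rows of the count matrices whose symbol starts with Ndufa, Ndufb, Ndufc, Ndufs, Ndufv, Sdh, Uqcr, Cox4 to Cox8 or Atp5 (nuclear), or with mt-Nd, mt-Co, mt-Cy or mt-Atp (mitochondrial). The rule matched 111 of 32287 rows, and 109 of them held at least 20 UMIs (unique molecular identifiers, each standing for 1 captured RNA molecule) over both libraries. These were 96 nuclear and 13 mitochondrial members. Cox8b, with 50 UMIs, was just inside this limit, and Cox7b2, with 11, and Cox8c, with 0, were outside it. Of all rows, 15052 passed the same limit. The data were 2 droplet (Chromium) single-cell RNA libraries, R1 and R2, in 1 group with no treatment. Both came from leptomeninges of the cerebral hemispheres of adult Pdgfra-H2BGFP mice, males and females aged 3 months, and every sample carried this reporter, which places a nuclear GFP under Pdgfra. The labels do not say whether R1 and R2 came from separate animals, so the p-values measure only the spread between these libraries, which may be technical. All comparisons were between cell classes within the same libraries.

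Complexes I to IV pass electrons from NADH and succinate to oxygen. Complexes I, III and IV pump protons across the inner mitochondrial membrane, and complex V uses the proton gradient to make ATP. Complex II is encoded wholly in the nucleus, while complexes I, III, IV and V join nuclear subunits to a few encoded in the mitochondrial genome, whose genes are transcribed together as long precursors. Several nuclear subunits have isoforms that differ between tissues. Among them are muscle forms of complex IV subunits, a testis form (Cox6b2), and the pericyte-enriched Cox4i2 and Ndufa4l2.

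R1 held 14586462 UMIs in 7276 barcodes and R2 held 12359040 in 6743. A barcode entered the analysis if it held 400 genes or more and no more than 10% of its UMIs were mitochondrial, which left 2988 in R1 and 3038 in R2. The mitochondrial limit alone removed 2974 and 2336 barcodes that had enough genes. Clusters were named from marker genes, with all members, Malat1 and the mitochondrial genes left out of the clustering. The classes used below were pial-like (175 cells in R1, 110 in R2), inner arachnoid-like (231, 410), dural border-like (455, 244), arachnoid barrier-like (42, 33), border macrophage-like (530, 681), microglia-like (191, 102), mural-like (47, 50) and endothelial-like (268, 259). Each class had every marker of its own list above 0, except that Krt8 and Krt18 were at 0 in the arachnoid barrier-like cells. Mural-like and arachnoid barrier-like cells were under 50 in a library and entered only the fits made for them. Fibroblast-like clusters that no layer's markers set apart kept their numbers: F01 (arachnoid barrier and dural border lists scored alike), F05 (led by Igha and Jchain) and F06 (led by Ttr). Cluster C06 was led by neuronal genes, and neuron and astrocyte lists scored alike in it. The tissue label is brain.

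The libraries shared 93 barcode sequences, and 63 of these made up the whole of cluster C07 in both. The UMI count of a C07 barcode in R2 was 0.943 to 1.248 times that in R1, and each of the 63 profiles correlated best with its own barcode in the other library (median r 0.696, against 0.452 between different barcodes). Reads of these cells therefore occur in both libraries, and R1 and R2 are not replicates for C07. Of the marker lists the endothelial one scored highest in C07, with Ackr1, Lrg1 and Fos among its leading genes. It was left out of the endothelial-like class, and results that change when it is added are given both ways. Of the endothelial-like cells 4 in each library were shared barcodes.

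Nuclear members took 2.10% of the UMIs of kept cells in R1 and 1.97% in R2, and mitochondrial members 4.44% and 4.21%. Levels are given as CPM, counts scaled to 1000000 UMIs of the class and library. They are not divided by gene length, since a UMI tags a molecule once, so an order of genes describes captured molecules only. The median nuclear member stood at 174 CPM in R1 and 180.4 in R2. Cox8a, a small subunit of complex IV, was the highest nuclear member at 1779 and 1149 CPM, followed by Cox6c at 938 and 699. Cox8b, a muscle isoform of a complex IV subunit, was lowest in both libraries at 0.65 and 1.27 CPM. Cox6a2, another muscle isoform (6.41 and 4.78 CPM), was next in R2, while Ndufaf6 (5.76 and 6.37 CPM) was next in R1. In complex I Ndufb9 was highest in R1 (440.2 CPM, 333 in R2) and Ndufa13 in R2 (483 CPM, 424 in R1). In the other complexes the highest members in both libraries were Sdha (complex II, 126 and 130.5), Uqcr11 (complex III, 431 and 396) and Atp5e (complex V, 527 and 520.3). The 12 assembly factors, which help build complexes I and II, summed to 317 and 343 CPM, and Ndufaf8 was the highest of them at 70.0 and 76.2. Among mitochondrial members mt-Atp6, a subunit of complex V, was highest at 7795 and 7461 CPM, mt-Co1 (6684 and 6006) and mt-Co2 (6490.3 and 6079) followed, in this order in R1 and the opposite one in R2, and mt-Nd6, the member encoded on the opposite strand from the others, was lowest at 56.4 and 65.8.

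The nuclear members filled a larger share of the RNA in mural-like, inner arachnoid-like and border macrophage-like cells than in the other 5 of these 8 classes. They took 2.19% of UMIs in R1 and 2.44% in R2 in mural-like cells, and 2.02% and 2.20% in inner arachnoid-like cells. Border macrophage-like cells held 2.04% and 2.08%. T or NK-like cells, a named class of 33 and 51 cells that entered no fit, held 1.96% and 2.20%. Endothelial-like cells held 1.63% and 1.54%, and microglia-like cells 1.45% and 1.55%. Pial-like cells held 1.36% and 1.33%, dural border-like cells 1.24% and 1.24%, and arachnoid barrier-like cells 1.26% and 0.898%. Libraries of 1 class differed by less than the gap between the high group and the low group, whose ranges did not overlap, while the order inside each group was not the same in R1 and R2. Of the 96 nuclear members 40 had their highest mean CPM in mural-like cells, 22 in inner arachnoid-like cells and 19 in border macrophage-like cells, and 54 had their lowest in arachnoid barrier-like cells. These counts are given without the shares over all genes. Mural-like and arachnoid barrier-like cells had the fewest UMIs of the 8 classes, so counting error moves their single-gene values most. The part of counting error in these counts was not tested. In the fit made for mural-like cells 7 of 91 nuclear members were counted as higher and 1 as lower. The mural-like class also had the highest summed level of the 7 neuron markers among the 8 named classes (721 and 411 CPM, against 206 to 346 in R1 and 72.0 to 150.3 in R2 elsewhere), and their part in the mural-like values was not tested.

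**Figure D1:**
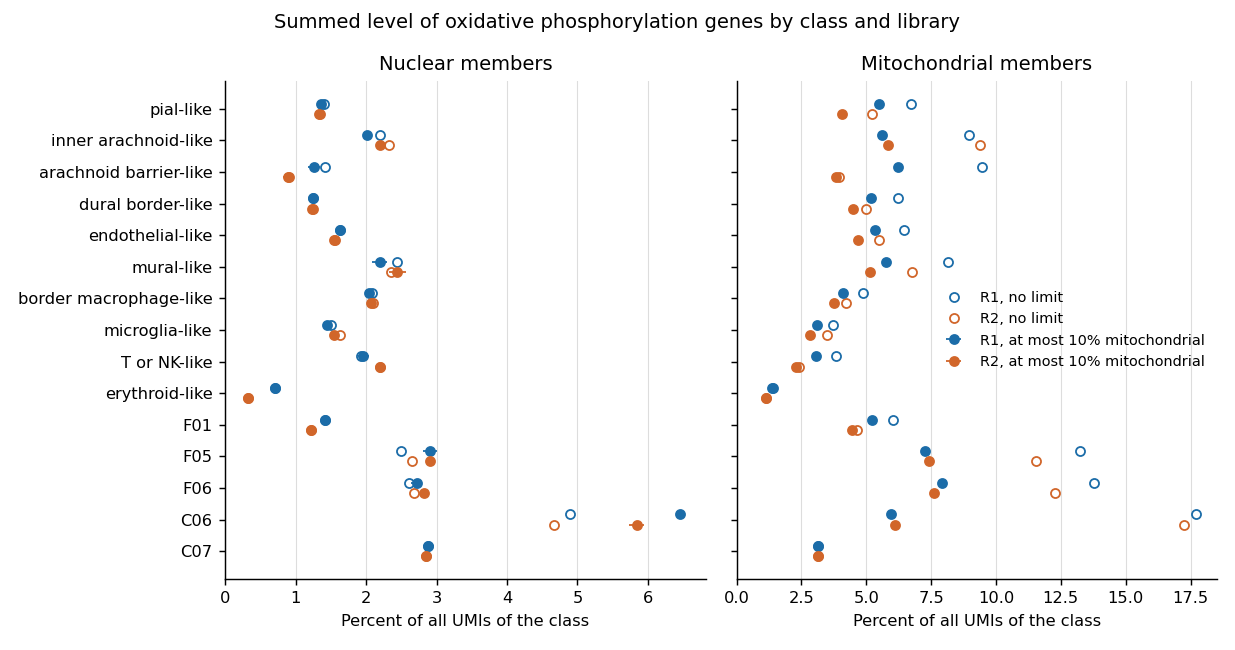
Summed nuclear (left) and mitochondrial (right) members as percent of all UMIs, for each class or cluster and library. Filled points use barcodes with at most 10% mitochondrial UMIs, with exact 95% binomial intervals as bars. Open points use no limit, and barcodes over 10% take the class of most of their nearest kept cells. Nuclear members are highest in C06 and, among the 8 classes compared, in mural-like, inner arachnoid-like and border macrophage-like cells, while mitochondrial members shift right without the limit, most of all in C06.

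The mitochondrial members followed another order. They took 5.59% and 5.82% of UMIs in inner arachnoid-like cells, 5.76% and 5.16% in mural-like cells, 5.48% and 4.08% in pial-like cells, 5.18% and 4.51% in dural border-like cells, and 5.35% and 4.66% in endothelial-like cells. Border macrophage-like cells were lower at 4.09% and 3.76%, and microglia-like cells lowest of the 8 at 3.09% and 2.84%. As means of both libraries, named classes that entered no fit were lower than microglia-like cells (2.97%). T or NK-like cells held 2.67%, plasma-like cells 2.1%, erythroid-like cells 1.26% and neutrophil-like cells 1.16%. The libraries differed most in arachnoid barrier-like cells, which were the highest of the 8 in R1 (6.24%) but lower than all except border macrophage-like and microglia-like cells in R2 (3.85%). Among the 8 classes the 13 mitochondrial members all had their lowest mean CPM in microglia-like cells, and 10 had their highest in inner arachnoid-like cells, again without the shares over all genes. Per UMI of the nuclear members there were 4.95 and 4.29 mitochondrial UMIs in arachnoid barrier-like cells, 4.17 and 3.64 in dural border-like cells and 4.02 and 3.06 in pial-like cells, but 2.01 and 1.81 in border macrophage-like and 2.14 and 1.83 in microglia-like cells. Inner arachnoid-like cells (2.77 and 2.65) lay between these 3 fibroblast layers on one side and the macrophage-lineage classes on the other, and these ranges did not overlap.

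The limit on mitochondrial UMIs cuts the mitochondrial members directly. Barcodes removed by it were not clustered, and each was assigned the class held by most of its 15 nearest kept cells. Without the limit, inner arachnoid-like cells went from 5.59% to 8.97% in R1 and from 5.82% to 9.38% in R2. Border macrophage-like cells went from 4.09% to 4.86% and from 3.76% to 4.22%. Microglia-like cells, at 3.71% and 3.48%, stayed the lowest of the 8 classes compared. In C06 the mitochondrial members reached 17.7% and 17.3% of UMIs without the limit, and the nuclear members 4.89% and 4.67%. With the limit, C06 held more nuclear members than any named class, 6.45% and 5.84%, led by Cox8a at 11160 and 9214 CPM. Over all barcodes with enough genes, nuclear members per 10000 UMIs of nuclear genes went from 192 in R1 and 173 in R2 where mitochondrial genes took up to 5% of UMIs, to 265 and 269 (5 to 10%), 352 and 343 (10 to 20%) and 532 and 515 (20 to 40%). Barcodes removed by the limit were thus richer in the nuclear members as well, and 618 of the 765 R1 barcodes of the last bin were assigned to C06.

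Malat1, a long noncoding RNA that stays in the nucleus, divided the barcodes of a class. Barcodes with at least 1% of their UMIs on Malat1 (Malat1-rich below) were 92.0% and 90.9% of pial-like cells, 88.1% and 79.9% of endothelial-like cells, 97.8% and 92.6% of the dural border-like class and 80.8% and 64.0% of mural-like cells. They were 37.2% and 24.4% of inner arachnoid-like, 28.1% and 24.2% of border macrophage-like and 43.5% and 40.2% of microglia-like cells. In F05 and F06 they were 1.90% to 5.91%. In each of the 4 classes with enough barcodes of both kinds, nuclear members were higher in Malat1-poor barcodes in both libraries. Inner arachnoid-like cells held 3.06% and 2.74% when Malat1-poor against 1.43% and 1.37% when Malat1-rich, and border macrophage-like cells 2.55% and 2.53% against 1.70% and 1.72%. Malat1-poor barcodes held fewer UMIs: their median was 1179 in R1 and 1004 in R2 in border macrophage-like cells, against 5453 and 5007 in Malat1-rich ones, and 1011 and 1302 against 3190 and 2337 in inner arachnoid-like cells. The 7 neuron markers summed to 116 to 571 CPM in the Malat1-poor and 56.7 to 331 CPM in the Malat1-rich barcodes of the 4 classes, higher in the Malat1-poor ones in every class and library. The 5 erythroid markers had no such order, but reached 107293 CPM in the Malat1-poor microglia-like barcodes of R1. The part of depth and of these markers in the difference was not tested. Mitochondrial members differed the same way as nuclear ones, with 5.83% and 5.52% against 2.95% and 2.42% in border macrophage-like cells.

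**Figure D2:**
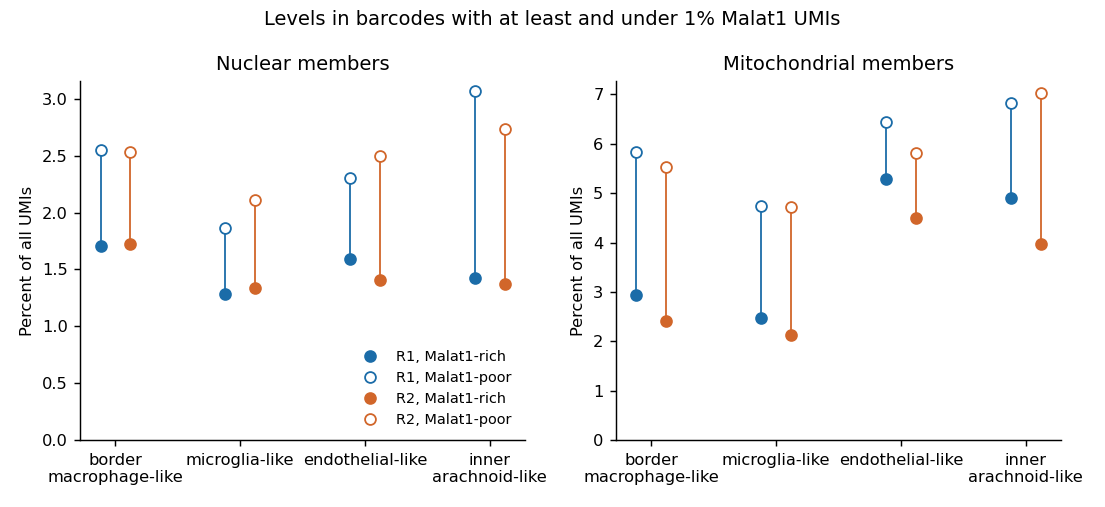
Nuclear (left) and mitochondrial (right) members as percent of all UMIs in Malat1-rich (filled) and Malat1-poor (open) barcodes of 4 classes, by library, with a line joining the values of 1 library. Each open point lies above its filled point, for the nuclear members from 1.86% against 1.29% (microglia-like, R1) to 3.06% against 1.43% (inner arachnoid-like, R1).

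Tested within class and library by edgeR's quasi-likelihood test with Benjamini-Hochberg adjustment (threshold 0.05), 71 of the 82 nuclear members that passed the filter on low counts rose in Malat1-poor barcodes and 0 fell. Of all 4715 genes tested 18.1% rose and 27.3% fell. The members' median log2 fold change was 0.72, against -0.11 over all genes, and all 13 mitochondrial members rose (median 0.80). By complex, 32 of 37 members of complex I, 2 of 4 of complex II, 6 of 8 of complex III, 12 of 12 of complex IV and 17 of 17 of complex V rose. Ndufa5, an accessory subunit of complex I, averaged 266 CPM in R1 and 262 in R2 in Malat1-poor barcodes against 144 and 117 in Malat1-rich ones, so that the ranges did not overlap (log2 fold change 1.07 ± 0.16 SE, adjusted p = 2.63e-05 by edgeR). Uqcrq, a small subunit of complex III, stood at 362 and 343 CPM against 200.4 and 169 (1.05 ± 0.17, adjusted p = 6.2e-05 by edgeR). Among the genes of mitochondrial DNA upkeep 3 of 4 tested fell, and Polg, the mitochondrial DNA polymerase, stood at 21.1 and 30.04 CPM against 66.3 and 68.7 (-1.39 ± 0.27, adjusted p = 0.000342 by edgeR). With each sum thinned to the same total only 24 nuclear members could be tested, 2 rose, and 0 mitochondrial members were called. Without the class and library terms 46 nuclear and 0 mitochondrial members were called.

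Fibroblast-like classes (pial-like, inner arachnoid-like and dural border-like, weighted equally) were set against microglia-like, endothelial-like and border macrophage-like cells in one edgeR quasi-likelihood fit with Benjamini-Hochberg adjustment, with the library as a block. Of the 90 nuclear members tested 3 rose and 42 fell, with a median log2 fold change of -0.29, while 10 of the 13 mitochondrial members rose and 0 fell (median 0.37). Of all 10425 genes tested 29.9% rose and 28.2% fell, with a median of 0.01. Members of complex III (6 of 8 fell) and complex V (9 of 17) fell more often by count than those of complex I (15 of 37), complex II (2 of 4) and complex IV (7 of 15), and these shares were not compared by a test. A log2 fold change here is a difference between means of logs over classes, so it can differ from the ratio of the mean CPM.

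The nuclear members counted as higher in fibroblast-like cells were Cox6b2, which is given with no test, Ndufa13 and Atp5g3. Cox6b2, an isoform of a complex IV subunit known from testis, averaged 94.0 CPM in R1 and 96.5 in R2 in fibroblast-like classes against 9.49 and 13.1 in the others. It passed the filter on low counts only through the fibroblast-like classes, so its level is given as a description, with no test. The counts of members lower in border macrophage-like, microglia-like and endothelial-like cells also include it. Ndufa13, a complex I subunit, stood at 522 and 575 CPM against 299 and 371 (0.59 ± 0.11, adjusted p = 1.59e-06 by edgeR), and Yjefn3 overlaps it on the same strand. Atp5g3, 1 of the 3 genes for the c subunit of the ATP synthase ring, stood at 261 and 212 CPM against 166 and 142 (0.43 ± 0.12, adjusted p = 0.00131 by edgeR). As averages over classes, the ranges of these 3 genes did not overlap between the sides. For Atp5g3 the fibroblast-like classes were not alike, with inner arachnoid-like cells at 419 and 344 CPM and dural border-like cells at 150.9 and 149.5. The dural border-like values lay within the range of the other side's averages.

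The largest falls were in Cox7a2l, which promotes the joining of complexes III and IV, in Ndufa8 and Ndufa7, accessory subunits of complex I, and in Atp5g2, another c subunit gene. Cox7a2l stood at 104 and 97.2 CPM in fibroblast-like classes against 234 and 201 (-1.14 ± 0.13, adjusted p = 4.69e-16 by edgeR). Atp5g2 stood at 221 and 236 CPM against 389 and 390.5 (-0.86 ± 0.12, adjusted p = 5.5e-12 by edgeR), the opposite direction from Atp5g3. Among mitochondrial members mt-Nd5 was at 1074 and 914 CPM against 678 and 645 (0.49 ± 0.12, adjusted p = 7.52e-05 by edgeR), and mt-Co1, mt-Co2 and mt-Nd1 did not pass the test. With mural-like and arachnoid barrier-like cells in the fit, 57 of 91 nuclear members fell and 1 rose, and 2 mitochondrial members rose. At a limit of 5% mitochondrial UMIs 5 mitochondrial members rose. Over Malat1-rich barcodes alone 41 of 88 nuclear members fell and 5 rose, and all 13 mitochondrial members rose.

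**Figure D3:**
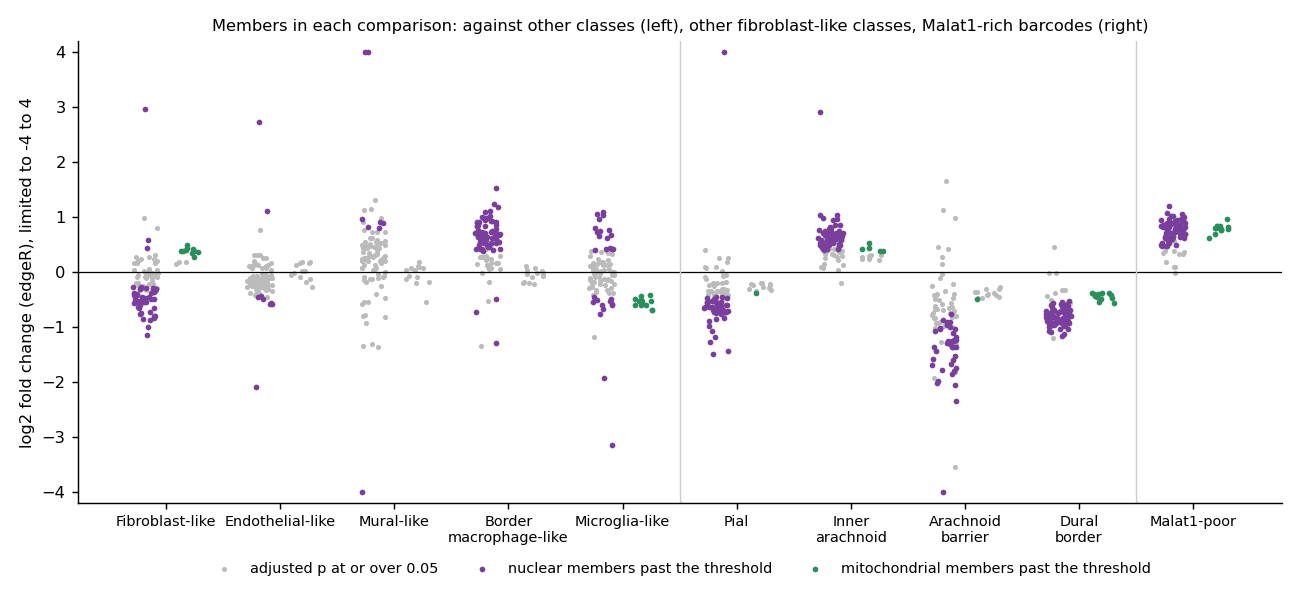
Log2 fold change (edgeR, vertical axis, limited to -4 to 4) of every member tested in 10 comparisons, 1 point per gene, with nuclear members left and mitochondrial members right in each comparison and grey points not past an adjusted p of 0.05. Nuclear members lie mostly above 0 in border macrophage-like cells (63 of 90 rose), inner arachnoid-like cells (59 of 87) and Malat1-poor barcodes (71 of 82), and below it in dural border-like cells (77 of 87 fell).

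The 5' windows of Cox6b2 and Atp5g3 are shown because both stood higher in the average of the fibroblast-like classes and again in inner arachnoid-like cells among the fibroblast layers. They are the 120 bases before each gene's start (RefSeq, GRCm38.p6, minus strand, 5′ to 3′), at chr7:4753095-4753214 for Cox6b2 and chr2:73911327-73911446 for Atp5g3, with capitals for the motif TCAAGGTCA of estrogen-related receptors, here on the reverse strand.
Cox6b2: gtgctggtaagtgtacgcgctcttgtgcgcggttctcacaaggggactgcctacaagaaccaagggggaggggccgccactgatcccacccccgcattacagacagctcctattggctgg
Atp5g3: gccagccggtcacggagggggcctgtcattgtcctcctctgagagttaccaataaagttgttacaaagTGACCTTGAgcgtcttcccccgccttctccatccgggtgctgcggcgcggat
The Cox6b2 window held none of the 4 motifs searched. On both strands of the 250 bases before the start, TCAAGGTCA was found in 1.2% of the 83 promoters held for 78 of the 96 nuclear members (a gene with several starts counts once per start), the single one being that of Atp5g3, and in 0.39% of all 32851 promoters. The motif of NRF1, a regulator of respiratory genes, was in 18.1% of the member promoters and 3.74% of all, among them those of Ndufa5, Ndufa8, Atp5g2, Sdha and Ndufs6. The ETS motif CCGGAAGT was in 3.61% and 2.88%, and the YY1 motif AAGATGGC in 1.2% and 1.56%. These matches describe the letters in the windows and name no bound factor.

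Border macrophage-like cells had the broadest rise of nuclear members among the 4 comparisons of this fit. Of 90 tested 63 rose and 3 fell (median log2 fold change 0.59), against 28.2% of all genes higher and 27.0% lower (median -0.08). The rise took in 25 of 37 members of complex I, 3 of 4 of complex II, 7 of 8 of complex III, 12 of 15 of complex IV and 13 of 17 of complex V. Of the mitochondrial members 0 passed by edgeR's quasi-likelihood test, with 0 at an unadjusted p under 0.05 and 0 by DESeq2 (median -0.04). Over Malat1-rich barcodes alone 57 of 88 nuclear members rose and 3 fell, while all 13 mitochondrial members fell (median -0.51).

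Ndufaf8, a complex I assembly factor, averaged 121 CPM in R1 and 129.8 in R2 in border macrophage-like cells against 48.0 and 53.5 elsewhere (1.54 ± 0.15, adjusted p = 1.08e-19 by edgeR). Cox7a2l stood at 283 and 254 CPM against 147 and 128 (1.23 ± 0.13, adjusted p = 1.11e-17 by edgeR), and Cox6b1, the widely expressed partner of Cox6b2, at 496 and 506 against 266 and 284 (1.12 ± 0.13, adjusted p = 1.6e-15 by edgeR). As averages over the other classes, the ranges of these genes did not overlap between the sides. Microglia-like cells alone stood at 275 and 198 CPM for Cox7a2l, so this class did overlap. The members counted as lower were Cox6b2, for which no test is given, Ndufv1, a core subunit of complex I, and Ndufaf7, an assembly factor. Outside the members Atpif1, the inhibitor of the ATP synthase, stood at 585 and 536 CPM against 195 and 210 (1.69 ± 0.13, adjusted p = 2.42e-32 by edgeR). Of the respiratory partner genes 13 of 32 rose and 2 fell, and of 17 glycolysis genes 2 rose and 5 fell.

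In microglia-like cells, the brain's resident macrophages, all 13 mitochondrial members fell (median log2 fold change -0.53) and the nuclear members were divided, with 16 of 90 higher and 12 lower (median 0.00). Of all genes 22.2% were higher and 22.1% lower, so the nuclear members' shares were near or under the background. The fall of mitochondrial members ran from -0.42 for mt-Nd5 to -0.69 for mt-Co3, which stood at 3813 and 3427 CPM against 6867 and 5897 (adjusted p = 0.000185 by edgeR). Ndufa9, a complex I subunit, stood at 77.4 and 97.0 CPM against 48.8 and 36.5 (1.10 ± 0.24, adjusted p = 2.99e-05 by edgeR). Atp5g3 stood at 119 and 97.0 CPM against 232 and 193 (-0.76 ± 0.19, adjusted p = 0.000364 by edgeR). Of 17 glycolysis genes 7 rose and 1 fell, and Hk2, a hexokinase, stood at 332 and 358 CPM against 39.4 and 43.2 (4.52 ± 0.20, adjusted p = 2.27e-71 by edgeR). The difference between the macrophage classes was not itself tested. At a limit of 5% mitochondrial UMIs 4 mitochondrial members fell. The balance of nuclear members turned to 12 higher and 16 lower of 88 over Malat1-rich barcodes, and to 11 and 15 of 91 with C07 among the endothelial-like cells.

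In endothelial-like cells 2 nuclear members rose and 7 fell of 90, against 18.5% of all genes higher and 11.0% lower, and of the mitochondrial members 0 passed by edgeR's quasi-likelihood test, 0 at an unadjusted p under 0.05 and 0 by DESeq2. Ndufa8 stood at 244 and 241 CPM against 104 and 106 (1.11 ± 0.16, adjusted p = 5.62e-11 by edgeR). Cox8a stood at 683 and 532 CPM against 840.0 and 845 (-0.56 ± 0.16, adjusted p = 0.00269 by edgeR). The glucose transporter gene Slc2a1 stood at 1499 and 2809 CPM against 19.3 and 20.3, and 5 of 17 glycolysis genes rose and 4 fell. Adding C07 to the class turned the balance of nuclear members to 24 higher and 2 lower of 91, and 3 mitochondrial members fell. Over Malat1-rich barcodes it was 6 higher and 1 lower of 88, with 5 mitochondrial members higher.

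Mural-like cells, the pericytes and smooth muscle of vessels, stood apart by their isoforms. Cox4i2, an isoform of a regulatory complex IV subunit, was at 236 CPM in R1 and 313 in R2 against 3.02 and 1.61 elsewhere, and Ndufa4l2, a paralog of the complex IV subunit Ndufa4, at 762 and 560 against 20.4 and 15.4. Cox4i2 passed the filter on low counts only in the fit that holds mural-like cells, so its level is given as a description, with no test. The fitted log2 fold change of Ndufa4l2, 6.63 ± 0.36 (adjusted p = 9.91e-75 by edgeR), depends on the prior count, since several other classes were at or near 0. In all 7 of 91 nuclear members were counted as higher and 1 as lower, and the 7 include Cox4i2, which is given with no test. Of all genes 5.98% were higher and 2.57% lower, so the nuclear members' shares were near or under the background. Of the mitochondrial members 0 passed (1 at an unadjusted p under 0.05, 0 by DESeq2). Ndufb9 stood at 554 and 411 CPM against 212 and 230.3 (0.91 ± 0.23, adjusted p = 0.00204 by edgeR), and Cycs, cytochrome c, at 208 and 214 against 77.5 and 83.3. The member that fell, Ndufaf7, had 0 UMIs in both libraries, and its level elsewhere lay under the floor of 3 counts. Without the shared barcodes 2 rose and 1 fell, and DESeq2 called 17 higher.

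Among the fibroblast layers, inner arachnoid-like cells were compared with pial-like and dural border-like cells and the numbered clusters F01, F05 and F06. In inner arachnoid-like cells 59 of 87 nuclear members rose and 0 fell (median log2 fold change 0.55), against 11.8% of all genes higher and 7.43% lower. The other side is an average, and some of its classes stood higher. Nuclear members took a mean of 2.90% of UMIs in F05 and 2.77% in F06, against 2.11% in inner arachnoid-like cells. Pial-like cells held 1.35%, dural border-like cells 1.24% and F01 1.32%. Mitochondrial members took 7.36% in F05 and 7.76% in F06, against 5.70% in inner arachnoid-like cells. They took 4.78% in pial-like cells and 4.84% in dural border-like cells and in F01. The rise took in 22 members of complex I, 3 of 4 of complex II, 8 of 8 of complex III, 11 of 14 of complex IV and 15 of 17 of complex V. The mitochondrial members mt-Co1, mt-Co3, mt-Nd3, mt-Nd4 and mt-Nd5 rose as well, a count that was 0 at a limit of 5% mitochondrial UMIs, 13 at 20% or with no limit, 3 with no filter on low counts and 1 without the library block. Of 16 TCA cycle genes 8 rose and 0 fell. The class joined cluster F02 (451 cells, 3.77% Malat1-rich) to F09 (190 cells, 88.9%). Over Malat1-rich barcodes alone, which leaves few or none of the barcodes of F05 and F06, 21 of 86 nuclear members rose and 0 fell, with 0 mitochondrial members. DESeq2 and sums thinned to equal totals each called 33 nuclear members higher.

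Atp5g3 stood at 419 and 344 CPM in inner arachnoid-like cells against 296 and 212 in the other fibroblast-like classes (1.03 ± 0.14, adjusted p = 3.07e-10 by edgeR). Cox6b2 stood at 121 and 124 CPM against 72.7 and 74.0 (1.03 ± 0.19, adjusted p = 4.06e-06 by edgeR). Ndufb10, a complex I subunit, stood at 249.7 and 308 CPM against 189.9 and 191 (0.96 ± 0.15, adjusted p = 2.63e-08 by edgeR). As averages over the classes of the other side, the ranges did not overlap in any of them. For Atp5g3 single classes of that side did reach into the inner arachnoid-like range. Ldhb, a lactate dehydrogenase subunit, stood at 294 and 383 CPM against 174 and 200.3 (1.33 ± 0.14, adjusted p = 4.1e-15 by edgeR).

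Dural border-like cells were the opposite case, with 77 of 87 nuclear members lower and 0 higher (median -0.79), and 12 of 13 mitochondrial members lower (median -0.42). Of all genes 24.4% were higher and 17.4% lower. Atp5a1, the alpha subunit of the ATP synthase, stood at 171 and 160.5 CPM against 358 and 334 (-1.13 ± 0.16, adjusted p = 5.73e-10 by edgeR). Sdhb, the iron-sulfur subunit of complex II, stood at 54.0 and 38.8 CPM against 114 and 93.3 (-1.17 ± 0.21, adjusted p = 1.6e-06 by edgeR). Of 15 glycolysis genes 12 fell. The other side includes F05 and F06, which were nearly all Malat1-poor, and over Malat1-rich barcodes alone 18 of 86 nuclear members fell and 0 mitochondrial members. At a limit of 5% mitochondrial UMIs 42 nuclear and 1 mitochondrial members fell, with thinned sums 44 nuclear members, and mitochondrial members numbered 2 with no filter on low counts and 6 without the library block.

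Pial-like cells had 44 of 87 nuclear members lower and 1 higher (median -0.52), against 19.2% of all genes higher and 15.3% lower, and mt-Nd1 fell among the mitochondrial members. Atp5e, the epsilon subunit of the ATP synthase, stood at 210 and 180.0 CPM against 532 and 500.5 (-1.18 ± 0.18, adjusted p = 1.28e-08 by edgeR). The member counted as higher was Ndufa4l2, at 68.2 and 42.6 CPM against 5.71 and 7.97, with F01 and F05 at 0. It passed the filter on low counts only through the pial-like cells, so its level is given as a description, with no test. Of 15 glycolysis genes 10 fell and 0 rose. Over Malat1-rich barcodes alone, which leaves few or none of the barcodes of F05 and F06 on the other side, the direction turned. There 6 of 86 nuclear members were higher and 0 lower. At a limit of 5% mitochondrial UMIs 0 nuclear members were called, DESeq2 called 19 lower, thinned sums gave 19 lower, and mitochondrial members numbered 12 lower at 20% or with no limit. In arachnoid barrier-like cells, with 42 and 33 cells, 40 of 88 nuclear members fell and 0 rose (median -0.95), against 6.81% of all genes higher and 6.29% lower, and mt-Cytb fell. Ndufb3, a complex I subunit that passed the test, had 2 UMIs in each library (31.6 and 33.4 CPM) against 167 and 156 CPM, and no fold is given since this is under the floor of 3 counts. Ndufs8, a core subunit of complex I, had 0 UMIs in both libraries against 105 and 116 CPM, at least 2.22-fold lower in R1 and 2.32-fold in R2 against this floor per library. DESeq2 called 17 lower, and 8 fell over Malat1-rich barcodes. The mitochondrial count was 0 to 6 over the alternatives.

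The isoform genes differed between classes in their share of a subunit's transcripts, and protein was not measured. Cox6b2 gave 33.0% of the Cox6b UMIs of pial-like cells in R1 (36 of 109) and 34.3% in R2 (23 of 67), 27.8% and 24.8% in inner arachnoid-like cells, 25.4% and 25.0% in dural border-like cells and 28.0% and 18.2% in arachnoid barrier-like cells. It gave 2.19% and 5.13% in endothelial-like, 2.55% and 2.65% in border macrophage-like and 2.62% and 2.75% in microglia-like cells, so the fibroblast layers and these classes did not overlap. In mural-like cells it gave 0 of 28 Cox6b UMIs in R1, where the floor of 3 counts is a share of 10.7%, and 11.1% in R2 (3 of 27). In C07 it was at 0 in both libraries. The gene lies at chr7:4751792-4753094 on the minus strand, and Fam71e2, upstream on that strand, had 0 UMIs in every class.

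Cox4i2 gave 25.8% (17 of 66) and 32.8% (19 of 58) of the Cox4 UMIs of mural-like cells, 3.60% and 1.59% in endothelial-like cells and at most 0.455% in the other named classes. Ndufa4l2 gave 66.3% (55 of 83) and 64.2% (34 of 53) of the Ndufa4 and Ndufa4l2 UMIs of mural-like cells, 13.3% and 9.09% in pial-like cells and 9.41% and 6.17% in endothelial-like cells. Mural-like cells were thus above every other class in both genes and both libraries. The c subunit genes, whose mature protein is the same, were divided otherwise: Atp5g3 gave 48.8% and 39.2% of their UMIs in inner arachnoid-like cells but 21.2% and 19.5% in border macrophage-like and 17.6% and 14.2% in microglia-like cells, where Atp5g2 gave 53.5% to 59.6%. Arachnoid barrier-like cells, with few UMIs, gave 59.1% and 31.2% for Atp5g3. The muscle forms were rare: Cox8b was at most 0.617% and Cox6a2 at most 3.95% of their pairs in any of the 8 named classes, and Cox7a1 gave 9.64% and 7.14% of its pair in pial-like cells.

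**Figure D4:**
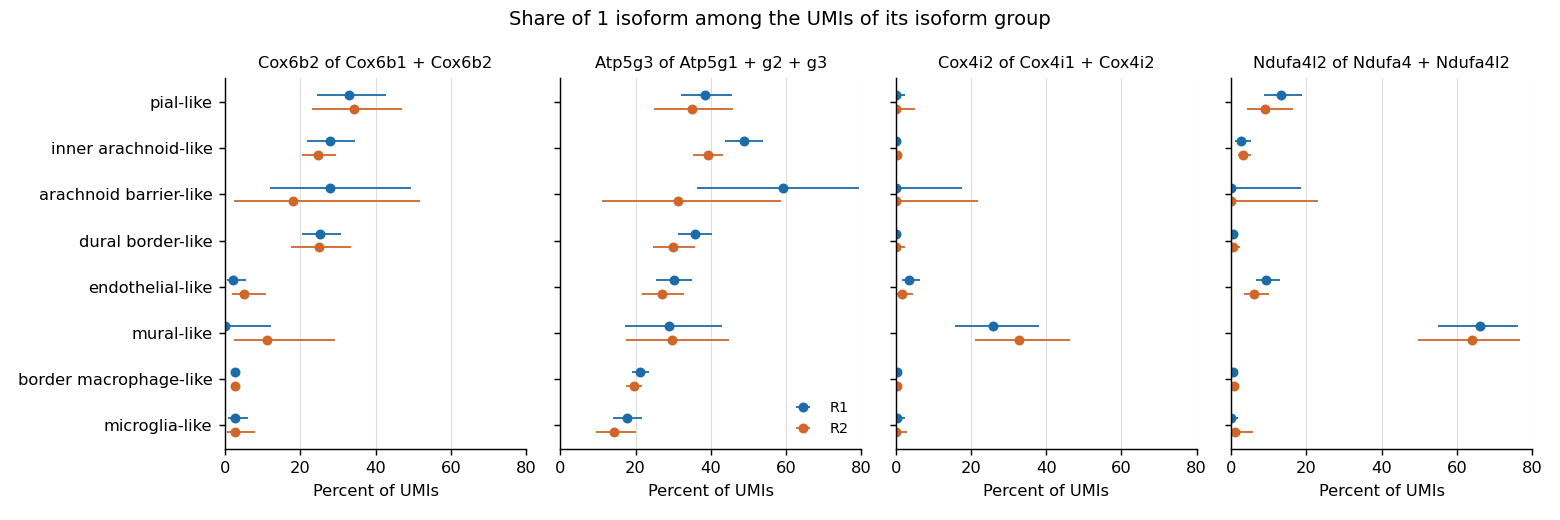
Share of an isoform among the UMIs of its isoform group (horizontal axis, percent) by class and library, with exact 95% binomial intervals that cover counting error only. Cox6b2 is high in the fibroblast layers (24.8% to 34.3% in pial-like, inner arachnoid-like and dural border-like cells), and Cox4i2 and Ndufa4l2 in mural-like cells.

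Within the mitochondrial members the proportions were alike among named classes and different in C07 and, for some members, in C06. Of the mitochondrial UMIs of C07 mt-Cytb gave 20.4% in R1 and 21.3% in R2, mt-Co3 17.9% and 17.7%, mt-Nd4l 0.422% and 0.435%, and mt-Atp8 0.068% and 0.048%. Over the 8 named classes and both libraries mt-Cytb ran from 11.2% to 14.3%, mt-Co3 from 12.1% to 14.4%, mt-Nd4l from 2.62% to 3.85%, and mt-Atp8 from 1.38% to 2.04%, so that C07 lay outside each range. The genes mt-Atp8, mt-Atp6 and mt-Co3 overlap or adjoin on 1 strand, as do mt-Nd4l and mt-Nd4, so reads near their junctions cannot be placed with certainty. Of the nuclear members 12 overlap a gene on the same strand and 37 a gene on the other strand.

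**Figure D5:**
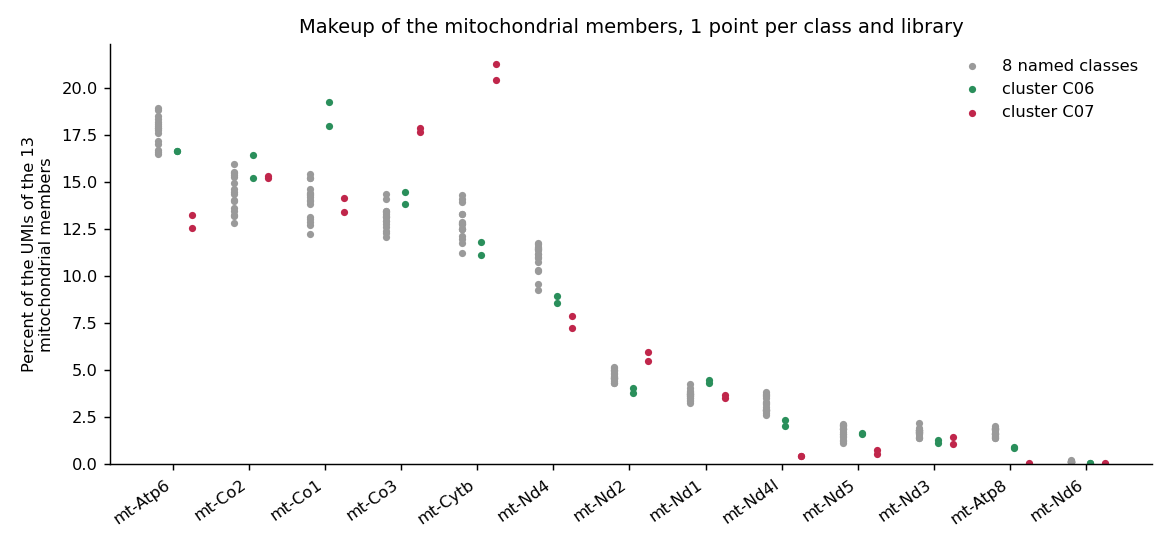
Percent of the UMIs of the 13 mitochondrial members (vertical axis) given by each of them, 1 point per class and library. C07 departs from the named classes in mt-Cytb (20.4% and 21.3%, against 11.2% to 14.3%) and mt-Co3 (17.9% and 17.7%, against 12.1% to 14.4%).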

How the data were processed

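Single-cell RNA of mouse leptomeninges was measured in 2 libraries, R1 and R2. The authors deposited unnormalized UMI counts for each gene in each barcode. Per the file headers these came from Cell Ranger 4.0.0, on mm10 per the submitters' processing notes, with gene symbols and barcodes (other values) in deposited companion files, per the file headers. Other settings are not given in the sources used here. Members and gene lists were chosen with earlier results of these data known. Kept barcodes had 400 genes or more and no more than 10% mitochondrial UMIs, at a median of 1644 UMIs in R1 and 1249 in R2. They were clustered in scanpy 1.11.5 on 2000 variable genes without members, lists, Malat1, mitochondrial or sex genes (30 principal components, 15 neighbours, Leiden resolution 1, and 1.5 for fibroblast-like cells, the latter chosen after seeing clusters). A name needed a marker score 0.3 above the next list's. C07 was left unnamed after its shared barcodes were seen. No doublet caller was run, and the 5% of barcodes with most UMIs were left out as an alternative.

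Counts were summed per class and library (at least 50 cells, or 30 for the mural-like, arachnoid barrier-like and Malat1 fits, of which the limit for those classes was set after cell counts were seen) and tested with edgeR 4.0.16 (TMM, filterByExpr, quasi-likelihood, R 4.3.3, limma 3.58.1), Benjamini-Hochberg over all genes, threshold 0.05. The library was a block because every class comes from the same libraries. Over 15 pairs of classes the correlation of their library deviations was 0.027 to 0.123 (median 0.088). DESeq2 1.42.0 was an alternative, and the other alternatives changed the filter on low counts, the block, the mitochondrial limit, the depth, the shared barcodes, C07 and the Malat1 status of barcodes. Named genes were the isoforms, the mitochondrial members, the top member of each complex, up to 4 members each way per comparison with at least 50 CPM and the same direction in both libraries, and up to 2 partner genes per list. Shares have exact (Clopper-Pearson) 95% intervals, and intervals and floors (3 counts) cover counting error only. The edgeR fit was tested on simulated data.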

Additional observations from a re-analysis of the deposited data

How the results depend on the processing

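Limits: 2 libraries of unstated animal origin, few mural-like and arachnoid barrier-like cells, a mitochondrial limit that cuts the mitochondrial members, and classes that differ in Malat1-rich barcodes. Of 305 gene values under 3922 alternative settings 3369 kept direction and side of the threshold, 313 lost the call, 115 gained it, 107 moved and 18 reversed; of counts 154 stayed within 1.5 times, 60 moved and 6 reversed. The cause was not tested for any change below. C07 and the fit with 8 classes were alternatives chosen after seeing the data.

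Counts of members called are given as nuclear, then mitochondrial. Without the replicate block, mitochondrial calls were 0 in pial-like, 1 in inner arachnoid-like, 0 in arachnoid barrier-like and 6 in dural border-like cells, and the Malat1 comparison had 46 nuclear and 0 mitochondrial. With DESeq2, nuclear calls were 17 in mural-like, 20 in pial-like, 33 in inner arachnoid-like and 17 in arachnoid barrier-like cells, and mitochondrial calls 0 in pial-like and 0 in arachnoid barrier-like cells. With no filter on low counts there were 4 nuclear calls in mural-like cells, and 0, 3, 4 and 2 mitochondrial calls in pial-like, inner arachnoid-like, arachnoid barrier-like and dural border-like cells. With sums thinned to equal totals, nuclear calls were 19 in mural-like, 19 in pial-like, 33 in inner arachnoid-like, 19 in arachnoid barrier-like and 44 in dural border-like cells and 2 for Malat1, and mitochondrial calls 1 in endothelial-like, 0 in pial-like, 0 in arachnoid barrier-like cells and 0 for Malat1. At most 5% mitochondrial UMIs gave 8 nuclear calls in endothelial-like (5 higher, reversed), 0 in pial-like and 42 in dural border-like cells, and mitochondrial calls of 5 in fibroblast-like, 4 in microglia-like, 0 in pial-like, 0 in inner arachnoid-like and 1 in dural border-like cells. At most 20% gave 14 nuclear calls in endothelial-like and 13 in mural-like cells, and 12, 13 and 4 mitochondrial calls in pial-like, inner arachnoid-like and arachnoid barrier-like cells. No mitochondrial limit gave 19 and 13 nuclear calls in endothelial-like and mural-like cells, and 1, 12, 13 and 6 mitochondrial calls in endothelial-like, pial-like, inner arachnoid-like and arachnoid barrier-like cells. Over Malat1-rich barcodes nuclear calls were 7 in endothelial-like (reversed), 28 in microglia-like (reversed), 6 in pial-like (reversed), 21 in inner arachnoid-like, 8 in arachnoid barrier-like and 18 in dural border-like cells, and mitochondrial calls 5 in endothelial-like, 13 in border macrophage-like, 0 in pial-like, 0 in inner arachnoid-like, 0 in arachnoid barrier-like and 0 in dural border-like cells. Without the 5% of barcodes with most UMIs there were 14 nuclear calls in endothelial-like and 2 mitochondrial in arachnoid barrier-like cells. Without shared barcodes there were 14 nuclear calls in endothelial-like and 3 in mural-like cells. With C07 there were 26 nuclear (reversed) and 3 mitochondrial calls in endothelial-like cells, and 26 nuclear calls (reversed) in microglia-like cells. With 8 classes in the fit, 2 mitochondrial members were called in fibroblast-like cells.

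Genes whose log2 fold change turned were, with C07 in endothelial-like cells, Ndufs3 (0.067), Cox20 (0.43), Cox4i1 (0.39) and Atp5g2 (0.35). Over Malat1-rich barcodes they were mt-Nd1 (-0.38), mt-Co1 (-0.32), mt-Co2 (-0.27) and mt-Atp6 (-0.42) in border macrophage-like cells, Cox4i1 (0.075), Cox6b1 (0.04), Cox7a2 (0.019), Cox8a (0.10) and Atp5g1 (0.068) in pial-like cells, and Ndufa4 (0.034) in dural border-like cells. Thinned sums turned Esrra in fibroblast-like cells (-0.15), and mt-Atp8 (-0.016) and mt-Nd3 (-0.10) in Malat1-poor barcodes. At most 5% mitochondrial UMIs turned Polg in pial-like cells (-0.029).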

Other observations

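Within some classes the nuclear members differed along the mitochondrial share of a barcode, and within others they did not. Per 10000 UMIs of nuclear genes, border macrophage-like barcodes held 195 in R1 and 199 in R2 where mitochondrial genes took up to 5% of UMIs, 255 and 265 at 5 to 10%, and 286 and 284 at 10 to 20%. Inner arachnoid-like barcodes held 189 and 184, then 235 and 271, then 289.5 and 289.5, and dural border-like barcodes 124 and 112, then 137 and 155, then 140.2 and 158. Microglia-like barcodes went from 135 and 148 to 219 and 238 between the first bins. In R1 endothelial-like barcodes went from 178 to 167 and then 191, and pial-like barcodes from 147 to 142 and then 183, while in R2 they went from 158 to 169.5 and 196, and from 130.1 to 159.9. The values went down in F05 from 5 to 10% on (303, 279.7 and 257 in R1, and 312 and 292 in R2), and in C19 (208 to 167 and 184 to 169.8). They stayed within 293 to 304 in F06 in R1. Cluster C06 held 747 and 596, 651 and 636, 546 and 535, and, at 20 to 40%, 567 and 573. These are values without a test, and barcodes over 10% took the class of most of their nearest kept cells.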
